A study of Mus musculus with 10 samples.

Results

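The genes described here are the secreted ligands, receptors and antagonists of the Wnt pathway, with the proteins that carry the signal to the nucleus. Every protein-coding gene of the count table whose mouse symbol is Wnt, Fzd, Sfrp, Dkk or Rspo followed by a digit was taken, together with Lrp5, Lrp6, Axin1, Axin2, Lef1, Tcf7, Tcf7l1, Tcf7l2, Ctnnb1 and Ccnd1. This gave 51 genes of the 36191 gene IDs in the table: 19 Wnt ligands, 4 R-spondins, 10 Frizzled receptors, 2 LRP co-receptors, 8 secreted antagonists, 3 genes for beta-catenin and Axin, 4 TCF/LEF factors and 1 cyclin.

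The study followed mouse embryonic stem (ES) cells as they differentiated toward heart muscle, through embryoid bodies grown in hanging drops, and sequenced their RNA. Wild type cells were compared with Rybp null mutant cells, and both are on the strain background 129x1 x 129S1. Each genotype has 1 library of ES cells (day 0) and 2 libraries of cardiac cultures at each of days 8 and 14, 10 libraries in all. RYBP is a partner of the Polycomb proteins that repress developmental genes. The labels do not say whether replicate libraries came from separate cultures, or how many ES cell clones stand for a genotype, so p-values measure the spread between these libraries, which may be technical. The ES cells were grown in serum with leukemia inhibitory factor.

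Wnt proteins are secreted lipid-modified ligands that bind Frizzled receptors. In the canonical branch, LRP5 or LRP6 joins the receptor, the Axin complex stops destroying beta-catenin, and beta-catenin enters the nucleus to work with TCF/LEF factors. Noncanonical ligands such as WNT5A and WNT11 signal mostly without beta-catenin. R-spondins strengthen the signal by protecting receptors from removal. SFRP proteins resemble the ligand-binding part of Frizzled and bind Wnts outside the cell, while DKK1 and its relatives act mainly on LRP5 and LRP6. In heart formation, canonical signalling is known to help specify mesoderm and later has to be restrained for cardiac progenitors to form, and noncanonical ligands are known to aid the cardiac program.

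Libraries were shallow, with 3028153 to 6890792 counts. Levels are given in CPM, the count of a gene scaled to the size of its library, after adjustment by trimmed mean of M-values (TMM); 3 counts correspond to 0.508 to 0.99 CPM, depending on the library. Rybp itself had 64 to 231 counts in the wild type libraries and 1 to 4 in the null libraries, and at day 14 its log2 difference from wild type was -4.71 (adjusted p = 0.000338). Heart muscle markers separated the genotypes. All 8 tested cardiomyocyte markers were lower in null cultures at day 8, when their summed level was 2167 to 2633 CPM in wild type and 72.5 to 125 CPM in null libraries, and 5 of 8 were lower at day 14. Nkx2-5 had too few counts to test. Genes on chromosomes 1, 6, 8 and 14 stood higher in null than in wild type libraries relative to the other autosomes, by a median of 0.34 at day 8, 0.35 at day 14 and 0.42 at day 0 (log2). Of the 51 genes, 14 lie on these chromosomes, among them Wnt5a (chromosome 14), Wnt6 and Fzd7 (1), Wnt2 and Lrp6 (6) and Sfrp1 (8).

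Promoter sequences are shown for 4 genes: Axin2, a classical transcriptional target of the canonical pathway, and Fzd1, Rspo1 and Sfrp2, a receptor, an agonist and an antagonist that all rose between days 8 and 14 in null cultures. The 250 bases before the transcription start were taken from RefSeq on GRCm38.p6 and are written 5' to 3' on the strand of the gene. They were searched on both strands for CTTTGA, the core that TCF/LEF factors bind. Capitals mark a match, which reads TCAAAG where it lies on the opposite strand. The windows are chr11:108920099-108920348 (plus strand) for Axin2, chr5:4758217-4758466 (minus strand) for Fzd1, chr4:124986180-124986429 (plus strand) for Rspo1 and chr3:83766071-83766320 (plus strand) for Sfrp2.
Axin2: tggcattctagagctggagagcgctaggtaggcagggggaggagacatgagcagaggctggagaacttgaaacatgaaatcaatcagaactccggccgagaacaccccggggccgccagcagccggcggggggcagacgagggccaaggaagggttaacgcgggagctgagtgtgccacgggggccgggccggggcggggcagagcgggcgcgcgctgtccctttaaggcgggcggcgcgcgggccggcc
Fzd1: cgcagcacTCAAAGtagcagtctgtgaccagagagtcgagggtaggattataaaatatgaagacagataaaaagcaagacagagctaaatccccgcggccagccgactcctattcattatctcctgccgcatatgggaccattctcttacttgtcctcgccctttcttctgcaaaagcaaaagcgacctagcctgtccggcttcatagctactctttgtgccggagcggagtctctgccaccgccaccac
Rspo1: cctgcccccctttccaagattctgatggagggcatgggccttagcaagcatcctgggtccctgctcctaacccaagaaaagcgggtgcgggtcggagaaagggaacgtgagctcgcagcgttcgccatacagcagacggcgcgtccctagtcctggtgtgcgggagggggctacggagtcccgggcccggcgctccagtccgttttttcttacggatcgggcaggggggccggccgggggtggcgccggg
Sfrp2: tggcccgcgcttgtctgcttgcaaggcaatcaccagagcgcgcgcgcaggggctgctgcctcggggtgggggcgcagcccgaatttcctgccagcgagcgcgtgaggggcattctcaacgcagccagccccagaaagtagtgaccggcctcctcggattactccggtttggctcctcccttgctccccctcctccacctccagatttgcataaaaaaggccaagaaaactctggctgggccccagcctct
Of these windows only that of Fzd1 held the core. RefSeq windows were at hand for 33 of the 51 genes (42 windows), and 5 of the 42 held it, those of Dkk1, Fzd1, Lef1, Wnt11 and Wnt5b. This is 11.9% of the windows, beside 13.8% of all 32851 promoter windows of the same length. The windows of the Wnt pathway genes had a median GC content of 68.6%, against 52.4% over all windows. Several of these windows overlap annotated exons, that of Dkk1 by 169 of its 250 bases and that of Fzd5 throughout. The 4 windows shown overlap none. A match describes the letters in the window and does not show that a factor binds there.

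Ligands were sparse, and Wnt5a held most of the ligand counts after day 0. Of the 19 ligand genes, 14 stayed below 5 CPM in every library and 8 had enough counts to test. Summed ligand levels were 9.57 CPM in the wild type and 9.81 CPM in the null ES cells. Wild type cultures had 82.1 and 113 CPM at day 8, then 66.3 and 68.2 CPM at day 14. Null cultures had 139 and 142 CPM, then 131 and 152 CPM. Wnt5a held 51.8% to 83.2% of the ligand counts in the 8 libraries of days 8 and 14. Its exon length of 7823 bases is the longest of the ligands, so its share of ligand transcripts is smaller than its share of counts. Divided by exon length, its mean level at day 14 was 4.64 CPM per kb in wild type and 12.6 in null cultures, and the next ligands were Wnt9a at 2.25 in wild type and Wnt6 at 3.68 in null cultures.

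Wnt5a encodes the main noncanonical ligand. Wild type ES cells had 1.65 CPM, day 8 cultures 63.9 and 89.9 CPM, and day 14 cultures 34.4 and 38.3 CPM. Null ES cells had 2.88 CPM, day 8 cultures 115 and 109 CPM, and day 14 cultures 85.3 and 111 CPM. Both null libraries thus lay above both wild type libraries at each later day, and the wild type level came down between those days. At day 14 Wnt5a was 1.44 higher in null cultures on the log2 scale (SE 0.23), with an adjusted p of 0.0176. It was the only gene of the 33 tested to pass between genotypes at that day, when 0.613% of all 15819 genes passed (0.259% higher and 0.354% lower). With a replicate block within each day, chosen after seeing the data, Sfrp1 and Sfrp2 passed as well, and without the count filter Wnt6, Sfrp1 and Sfrp2 did. The day 8 difference was 0.54 on the same scale (SE 0.23) and did not pass (adjusted p = 0.317). In wild type cultures Wnt5a fell by 1.08 on the log2 scale from day 8 to day 14 (SE 0.23, adjusted p = 0.0221). The change in null cultures was -0.19 (SE 0.22, adjusted p = 0.699). The difference between these changes was 0.89 (SE 0.32) with an adjusted p of 0.721, so it did not pass. Genes of chromosome 14 stood 0.40 above the other autosomes in null cultures at day 8 and 0.44 at day 14 (median log2), beside Wnt5a differences of 0.54 and 1.44. The day 14 call was lost without wild type replicate 1 (adjusted p = 0.127), wild type replicate 2 (0.207) or null replicate 2 of that day (0.0737), with log2 fold changes of 1.23 to 1.62 over all omissions. The fall in wild type was lost without replicate 2 of day 8 (0.278) or replicate 1 (0.173) or 2 (0.153) of day 14.

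Fibroblast and epicardial markers, which belong to cells that commonly express Wnt5a and the Sfrp genes, did not pass between genotypes for any of 7 tested markers. Their summed level at day 14 was 11752 to 12296 CPM in wild type and 13420 to 13989 CPM in null libraries, and all 9 listed markers had counts in both genotypes. At day 8 the ranges were 8398 to 10055 and 4716 to 8798 CPM. Cardiomyocyte markers summed to 926 to 1046 CPM in wild type and 188 to 258 CPM in null libraries at day 14. Macrophage markers passed as lower in null cultures at day 8 for 3 of 5 (median log2 difference -3.20), with 51.3 to 78.9 CPM in wild type and 9.5 to 12.1 CPM in null libraries. Visceral endoderm markers passed as lower for 2 of 4 tested at day 8 and 1 of 4 at day 14. Endothelial markers passed as lower for 2 of 6 at day 14 (median -1.15), with 144 to 189 and 96.6 to 134 CPM. Pluripotency markers passed as higher for 2 of 9 in null cultures at day 8 (median 1.55). At day 14 no macrophage marker (median -1.31) and no pluripotency marker (median 0.09) passed. None of 5 epithelial and 3 tested neural markers passed at either day. Epithelial markers summed to 120 to 235 CPM in wild type and 242 to 548 CPM in null libraries at day 14 (median 0.99). These were whole cultures, in which fewer cells of a type and less RNA per cell cannot be told apart, and the part of the cell mixture in the Wnt gene levels was not tested.

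Wnt6, another ligand gene, was low. Its wild type levels were 0.319 and 1.13 CPM (day 8) and 2.43 and 0.766 CPM (day 14). Its null levels were 5.08 and 5.47 CPM (day 8) and 12.7 and 3.46 CPM (day 14). The null values were above the wild type values at both days, but the day 14 null replicates were far apart. Neither the day 8 difference of 2.77 (log2, SE 0.89) nor the day 14 difference of 2.34 (SE 0.78) passed, with adjusted p of 0.176 and 0.206. The day 8 difference passed with a replicate block within each day (adjusted p = 0.0339), and both passed without the count filter (0.0307 and 0.0432). Wnt6 lies on chromosome 1, whose genes stood 0.46 and 0.48 above the other autosomes at these days (median log2). Within null cells Wnt6 rose from 2 counts at day 0 to 40 at day 8, a ratio of 15.5 (95% counting interval 4.03 to 133, adjusted p = 0.0232). Only in null cultures did Wnt6 reach the level needed for testing.

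Wnt2, a ligand of early heart mesoderm, had 0 counts in both ES cell libraries. It stood at 5.75 and 9.3 CPM in wild type and 5.8 and 7.77 CPM in null cultures at day 8, where the genotypes overlapped. At day 14 it was 1.82 and 2.3 CPM in wild type and 6.48 and 5.44 CPM in null cultures. The day 14 groups did not overlap, but the log2 fold change of 1.51 (SE 0.54) did not pass (adjusted p = 0.24). Genes of chromosome 6, where Wnt2 lies, stood 0.26 above the other autosomes in null cultures that day (median log2). From day 0 to day 8 Wnt2 was at least 7.72-fold higher in wild type (adjusted p = 0.00124) and at least 13.2-fold higher in null cells (adjusted p = 0.00049), against a floor of 3 counts in the ES cell library. Wnt4 rose to day 8 in null cells, at least 5.69-fold (adjusted p = 0.00685). In wild type it went from 1 count to 14, and that change did not pass (adjusted p = 0.129).

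Ligands often used to mark or drive the early canonical signal were near the detection limit. Wnt3 had at most 9 counts in any library and Wnt3a had 1 count in all 10 libraries together, in wild type ES cells. Neither could be tested. Wnt11, a noncanonical cardiac ligand, had 0.639 to 3.95 CPM at days 8 and 14. The genotype differences were -0.56 (log2, SE 1.02) and 0.80 (SE 0.84), with adjusted p of 0.865 and 0.78. Only in a null library of day 14 did Wnt11 reach the level needed for testing. Wnt2b had the highest mean CPM of the ligands with no call in any comparison. It had 3.1 to 10.9 CPM at days 8 and 14, and the genotypes overlapped at both days. Divided by exon length, Wnt9a was higher, at a mean of 1.34 CPM per kb over all 10 libraries against 1.29 for Wnt2b.

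**Figure D1:**
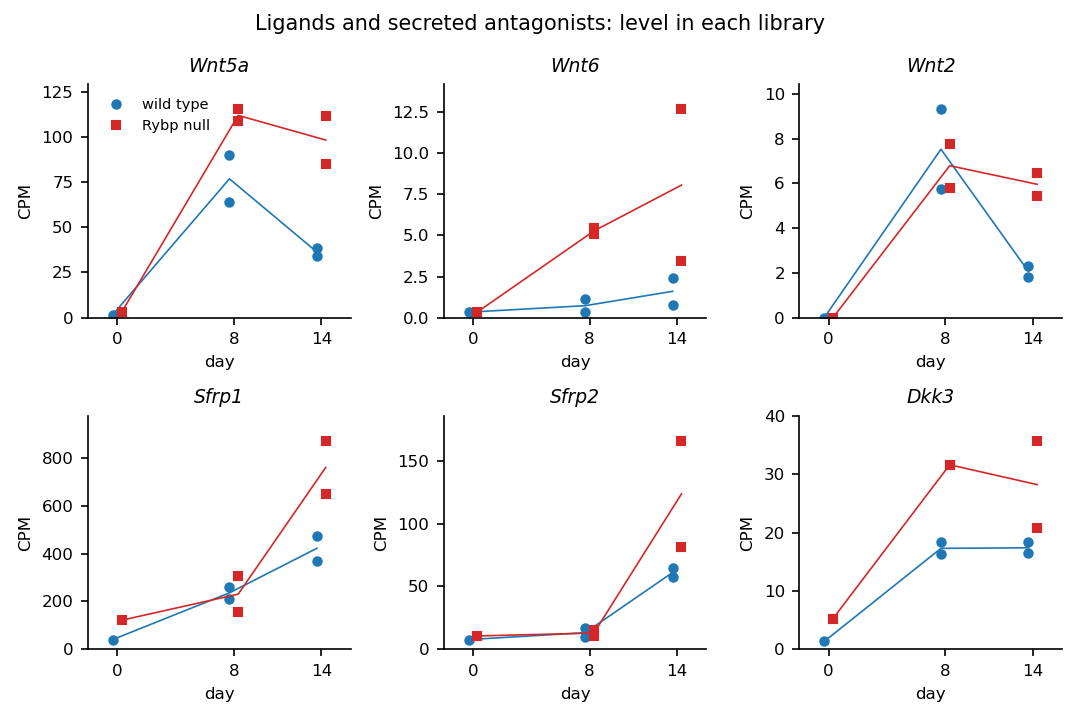
Level (CPM, y axis) of Wnt5a, Wnt6, Wnt2, Sfrp1, Sfrp2 and Dkk3 against day of differentiation (x axis) in each of the 10 libraries; circles are wild type, squares are Rybp null, and lines join group means, the genotypes drawn slightly apart at each day. For Wnt5a at day 14 the wild type libraries lie at 34.4 and 38.3 CPM, below the null libraries at 85.3 and 111 CPM, and for Sfrp1 and Sfrp2 the day 14 null libraries are the highest of all.

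R-spondin genes were near 0 in ES cells and higher in the later cultures. R-spondin 3 transcripts (Rspo3) had 0.33 CPM in wild type and 0.338 CPM in null ES cells. It reached 31 and 39.2 CPM in wild type and 26.8 and 34.2 CPM in null cultures at day 8, then stood at 19.5 and 18.4 CPM and at 16.3 and 19.5 CPM at day 14. Every day 14 library was below every day 8 library, with overlap of the genotypes at both days. The rise to day 8 was 107-fold in wild type (95% counting interval 19 to 4248, adjusted p = 1.3e-05) and 89.3-fold in null cells (24.4 to 742, adjusted p = 6.95e-06). The later change of -0.89 in wild type (SE 0.28) and -0.76 in null cultures (SE 0.28) did not pass (adjusted p = 0.109 and 0.129). Rspo1 followed another course. Its wild type levels were 0.66 CPM in ES cells, then 6.07 and 6.76 CPM, then 16.1 and 24.2 CPM. Its null levels were 1.35, then 3.87 and 5.18, then 8.45 and 21.7 CPM. Rspo1 was thus highest at day 14 in both genotypes. It rose 9.76-fold to day 8 in wild type (2.54 to 83.2, adjusted p = 0.018). From day 8 to day 14 it rose by 1.75 (log2) in null cultures (SE 0.49, adjusted p = 0.0483), while the wild type change of 1.65 (SE 0.47) had an adjusted p of 0.0794. The null call was lost in 7 of the 8 fits that leave out a later library. Its change was 0.90 to 2.27 over these fits, with an adjusted p of 0.417 without null replicate 2 of day 14. Rspo2 and Rspo4 had at most 5 counts in any library.

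Among the Frizzled receptors, Fzd7 was the most abundant per exon length in all 6 groups, at 23.1 to 46 CPM per kb, and at days 8 and 14 it was followed by Fzd1 at 4.4 to 12.1 CPM per kb. Fzd7, the main Frizzled of mouse ES cells, had 105 CPM in wild type and 128 CPM in null ES cells. Wild type cultures had 181 and 192 CPM on day 8, then 138 and 155 CPM, while null cultures had 142 and 181 CPM and then 227 and 190 CPM. The wild type libraries therefore moved down and the null libraries up between these days. The day 14 genotype difference of 0.51 (log2, SE 0.18) did not pass (adjusted p = 0.244). Genes of chromosome 1, where Fzd7 lies, stood 0.48 above the other autosomes in null cultures that day (median log2). The difference between the changes, 0.71 (SE 0.26), did not pass either (adjusted p = 0.721). In wild type cells Fzd7 rose from day 0 to day 8 by 0.83 (log2, SE 0.23, adjusted p = 0.0134), and that call was lost without wild type replicate 2 of day 8 (0.0629).

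Fzd1, a receptor for several Wnts, was near 0 in ES cells. ES cells had 1 count in wild type and 5 counts in null libraries. At day 8 wild type cultures had 29.4 and 30.7 CPM and null cultures 20.6 and 16.4 CPM, without overlap, and at day 14 the values were 48.4 and 43.4 CPM against 54.9 and 46.5 CPM. The rise to day 8 was 91.2-fold in wild type (16.2 to 3621, adjusted p = 9.94e-06) and 4.40 on the log2 scale in null cells (SE 0.48, adjusted p = 2.42e-05). Fzd1 rose again to day 14 in null cultures, by 1.45 (log2, SE 0.25, adjusted p = 0.00457), while the wild type change of 0.61 (SE 0.25) did not pass (adjusted p = 0.229). The lower day 8 level in null cultures, -0.70 (SE 0.26), did not pass (adjusted p = 0.245).

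The other Frizzled genes were lower. Fzd4 had 18.5 and 17.2 CPM in wild type and 8.22 and 9.21 CPM in null cultures at day 8, a log2 difference of -1.03 (SE 0.45, adjusted p = 0.348). It rose 18-fold from day 0 in wild type (6.01 to 88.5, adjusted p = 0.00184), and the null change of 1.67 (log2, SE 0.64) had an adjusted p of 0.0559. Fzd3 was at 26.1 CPM in wild type and 28.9 CPM in null ES cells, and at day 8 had 28.7 and 31.3 CPM in wild type and 15 and 21.9 CPM in null cultures (log2 difference -0.71, SE 0.28, adjusted p = 0.295). Fzd2 passed only in wild type from day 0 to day 8, from 0 to 20 counts, at least 3.03-fold (adjusted p = 0.0397). It reached the level needed for testing only in that day 8 group. Fzd5 was the only Frizzled gene to pass as lower at day 8 than at day 0. Only in ES cells did Fzd5 reach the level needed for testing. It had 16 counts in wild type ES cells and 1 in the day 8 libraries together, 35.3-fold lower (5.48 to 1478, adjusted p = 0.0058), and in null cells it fell by 2.25 on the log2 scale (SE 0.79, adjusted p = 0.0401). The Fzd2 call and the null Fzd5 call were each lost in 4 of 8 fits that leave out a library. Fzd6, with enough counts but no call, had at most 8.9 CPM, and Fzd8, Fzd9 and Fzd10 had too few counts to test.

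Lrp6, the main canonical co-receptor, stood at 147 CPM in wild type and 233 CPM in null ES cells. Later levels were 234 and 249 CPM (day 8) and 277 and 307 CPM (day 14) in wild type, and 330 and 252 CPM and 320 and 351 CPM in null cultures. Each null library was above the wild type libraries of its day, yet the log2 differences of 0.27 (SE 0.17) and 0.20 (SE 0.17) did not pass (adjusted p = 0.545 and 0.716) and were close to the shift of chromosome 6 as a whole, 0.26 at both days. Lrp6 rose to day 8 in wild type by 0.72 (log2, SE 0.22, adjusted p = 0.0208), a call lost without either wild type day 8 library (0.0619 and 0.0896). Lrp5 had 3.63 CPM in wild type ES cells and 15.7 and 13.8 CPM at day 8, a rise of 2.01 (log2, SE 0.57, adjusted p = 0.0137). In null cells it had 4.4, then 8.95 and 13.5 CPM, a change of 1.34 (SE 0.50, adjusted p = 0.0532).

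**Figure D2:**
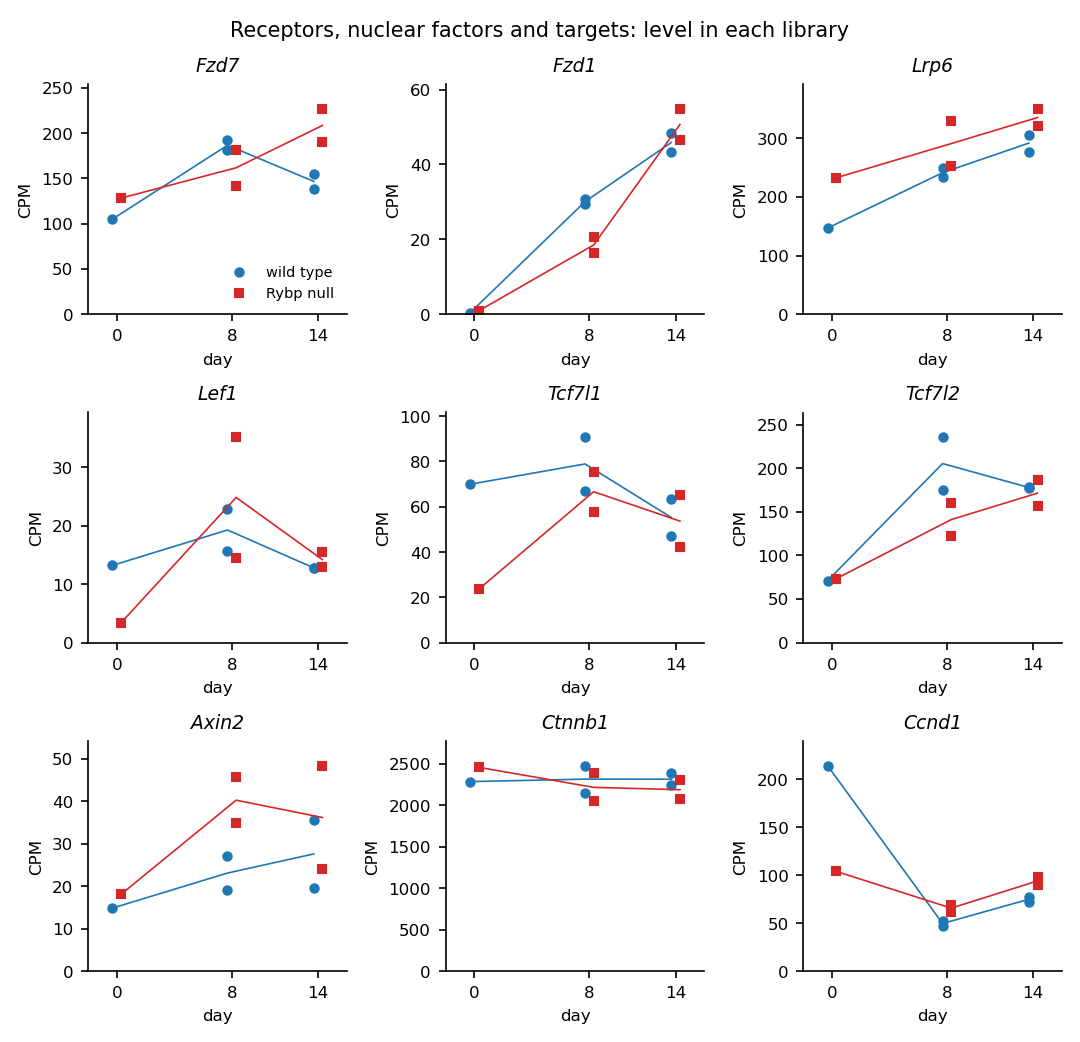
Level (CPM, y axis) of 3 receptors, 3 TCF/LEF factors, Axin2, Ctnnb1 and Ccnd1 against day of differentiation (x axis) in each library; circles are wild type, squares are Rybp null, and lines join group means, the genotypes drawn slightly apart at each day. Fzd1 climbs from near 0 in both genotypes, Ctnnb1 stays between 2045 and 2475 CPM, and Lef1, Tcf7l1 and Ccnd1 start lower in the null ES cells.

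Sfrp1 was the most abundant secreted antagonist. Per exon length Sfrp1 led them in all 6 groups, and it had 53.9 CPM per kb in wild type and 52.7 in null cultures at day 8, and 96.7 and 174 at day 14. Sfrp1 had 39.9 CPM in wild type and 121 CPM in null ES cells. Day 8 libraries had 261 and 211 CPM in wild type and 306 and 155 CPM in null cultures, and day 14 libraries had 370 and 476 CPM and 651 and 873 CPM. The genotypes overlapped at day 8 and not at day 14. In wild type cells Sfrp1 rose from day 0 to day 8 by 2.56 (log2, SE 0.41, adjusted p = 0.000506), and in null cells it rose from day 8 to day 14 by 1.72 (SE 0.29, adjusted p = 0.00419). The null change to day 8, 0.93 (SE 0.36), and the wild type change to day 14, 0.84 (SE 0.28), did not pass (adjusted p = 0.0607 and 0.139). At day 14 Sfrp1 was 0.85 higher in null cultures (log2, SE 0.28), which did not pass (adjusted p = 0.211). It did pass with a replicate block within each day (adjusted p = 0.0161) and without the count filter (0.000536). Leaving out each later library in turn gave differences of 0.62 to 1.04. Genes of chromosome 8, where Sfrp1 lies, stood 0.17 above the other autosomes in null cultures at day 14 (median log2).

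Sfrp2, a close relative, was an antagonist of day 14. It stood at 7.59 CPM in wild type and 10.5 CPM in null ES cells, and at 16.6 and 9.58 CPM and 15.5 and 10.1 CPM at day 8. At day 14 it reached 57.8 and 64.6 CPM in wild type and 81.6 and 166 CPM in null cultures, above every earlier library. It was the only gene of the set to pass between days 8 and 14 in both genotypes, with a rise of 2.23 (log2, SE 0.38, adjusted p = 0.00623) in wild type and 3.27 (SE 0.38, adjusted p = 0.000386) in null cultures. The null rise was 2.66 without null replicate 2 of day 14. The day 14 genotype difference was 1.02 (SE 0.34) and did not pass (adjusted p = 0.205). It passed with a replicate block within each day (0.0412) and without the count filter (0.00641). Leaving out each later library in turn gave differences of 0.42 to 1.44. The difference between the changes was 1.04 (SE 0.52, adjusted p = 0.838). The wild type call was lost without replicate 2 of day 8 (0.111) or replicate 2 of day 14 (0.0604). Sfrp4 took the opposite course, from 23 counts in wild type ES cells to 0 in the day 8 libraries, at least 16.9-fold lower (adjusted p = 0.00427), and from 69 to 10 counts in null cells, a fall of 3.15 on the log2 scale (SE 0.94, adjusted p = 0.0208). Without null replicate 2 of day 8 that change was -2.57, with an adjusted p of 0.0763, and without replicate 1 it was -4.26.

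Dkk3, a divergent member of its family, was higher in null libraries throughout. It had 1.32 CPM in wild type and 5.25 CPM in null ES cells, 16.3 and 18.3 CPM against 31.7 and 31.7 CPM at day 8, and 16.4 and 18.4 CPM against 35.8 and 20.8 CPM at day 14. No null library overlapped the wild type libraries of its day, but the log2 differences of 0.87 (SE 0.31) and 0.69 (SE 0.31) did not pass (adjusted p = 0.229 and 0.37). The rise from day 0 to day 8 was 3.68 (log2, SE 0.60, adjusted p = 0.000449) in wild type and 2.59 (SE 0.43, adjusted p = 0.000592) in null cells. Dkk1, the prototype LRP6 antagonist and itself a target of the pathway, was at 0 counts in wild type and 1 count in null ES cells and at 4.15, 4.51, 5.56 and 7.77 CPM in the day 8 libraries, the last 2 of them null. It rose at least 4.39-fold in wild type (adjusted p = 0.00404) and 38.8-fold in null cells (6.66 to 1564, adjusted p = 0.00129). Dkk2, which can act as agonist or antagonist, rose 50.4-fold in wild type (8.86 to 2008, adjusted p = 0.000796) and at least 30.0-fold in null cells (adjusted p = 0.00016), to 17.6 and 15.8 CPM and to 17.2 and 13 CPM. Dkk1 and Dkk2 showed no call between genotypes, with log2 differences of 0.61 (SE 0.50) and -0.14 (SE 0.41) at day 8 and adjusted p of 0.661 and 0.924. Dkk4 and Sfrp5 had too few counts to test.

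Ctnnb1, the gene for beta-catenin, was the most abundant of the 51 genes. It lay at 2283 CPM in wild type and 2455 CPM in null ES cells, and the later genotype differences were -0.06 (log2, SE 0.15) and -0.08 (SE 0.15), with adjusted p of 0.903 and 0.908. These are transcript levels, and beta-catenin is controlled mainly at the protein, which was not measured. Axin2, a feedback inhibitor widely used as a readout of canonical signalling, had 14.8 CPM in wild type and 18.1 CPM in null ES cells, 19.2 and 27.1 CPM against 34.8 and 45.8 CPM at day 8, and 35.6 and 19.7 CPM against 48.4 and 24 CPM at day 14. The genotypes were apart at day 8 and overlapped at day 14. The differences of 0.80 (log2, SE 0.38) and 0.39 (SE 0.38) did not pass (adjusted p = 0.39 and 0.752). Axin1, the constitutive scaffold, had 11.2 to 28.2 CPM in all 10 libraries, with log2 differences of -0.08 (SE 0.33) and 0.34 (SE 0.33).

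Among the TCF/LEF factors, Lef1 and Tcf7l1 were lower in the null ES cell library, and 1 library each allows no test. Lef1 had 40 counts (13.2 CPM) in wild type and 20 counts (3.38 CPM) in null ES cells, 3.9-fold lower in null cells (95% counting interval 2.23 to 7.04). Tcf7l1, the repressor-type factor that limits the ES cell network, had 69.9 CPM and 23.5 CPM, 2.97-fold lower (2.39 to 3.71). Tcf7 was at 37.3 and 48.7 CPM and Tcf7l2 at 70.9 and 73.3 CPM. Counting intervals cover counting error only and say nothing of the spread between cultures. By day 8 Lef1 had 15.7 and 22.8 CPM in wild type and 14.5 and 35.1 CPM in null cultures, and Tcf7l1 had 67.1 and 90.7 CPM and 75.4 and 57.8 CPM, so the genotypes overlapped for both. Within null cells Lef1 rose by 2.85 (log2, SE 0.58, adjusted p = 0.00213) and Tcf7l1 by 1.50 (SE 0.35, adjusted p = 0.00546), while the wild type changes were 0.55 (SE 0.51) and 0.18 (SE 0.33), with adjusted p of 0.418 and 0.699. Lef1's rise was 2.09 without null replicate 2 of day 8 and 3.37 without replicate 1. The null changes rest on the single null ES cell library.

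Tcf7l2 rose to day 8 in both genotypes, by 1.53 (log2, SE 0.27, adjusted p = 0.000744) in wild type and 0.94 (SE 0.26, adjusted p = 0.0125) in null cells. It reached 175 and 236 CPM in wild type and 122 and 160 CPM in null cultures at day 8, without overlap, and 177 and 179 CPM against 187 and 156 CPM at day 14. The day 8 difference of -0.54 (SE 0.20) did not pass (adjusted p = 0.248). Tcf7, the gene for TCF1, had 24.9 and 33.3 CPM against 44.7 and 54.1 CPM at day 8 and 25.2 and 9.44 CPM against 26.2 and 17.3 CPM at day 14. Its day 8 difference of 0.76 (SE 0.38) did not pass (adjusted p = 0.413). Per exon length the order of the factors at day 14 was Tcf7l2, Tcf7l1, Tcf7 and Lef1 in both genotypes, at 20.3, 14.1, 6.61 and 1.45 CPM per kb in wild type.

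Ccnd1, the gene for cyclin D1 and a commonly cited target, was the only one of the set outside the Frizzled and Sfrp families to pass as lower at day 8 than at day 0. Its wild type levels ran from 214 CPM in ES cells to 52.1 and 47.1 CPM, then 77.3 and 72.5 CPM. Null libraries had 104, then 61.9 and 69.4, then 89.5 and 98.4 CPM. The null ES cell library was thus lower and the later null libraries higher than wild type. The day 0 level was 2.06-fold lower in null cells (95% counting interval 1.84 to 2.30). The fall to day 8 was -2.11 (log2, SE 0.21, adjusted p = 1.22e-05) in wild type and -0.66 (SE 0.22, adjusted p = 0.0289) in null cells. The null call was lost without null replicate 1 of day 8 (adjusted p = 0.0714). The genotype differences of 0.40 (SE 0.19) at day 8 and 0.33 (SE 0.18) at day 14 did not pass (adjusted p = 0.375 and 0.504).

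Of the 51 genes 33 were tested, and the 18 others had 1 to 51 counts in all libraries together. At day 8, where 1.26% of all genes passed (0.506% higher and 0.759% lower), none of the 33 did by edgeR or by DESeq2, and 9 had an unadjusted p under 0.05, against 13.4% of all genes. Of these, Wnt6, Dkk3, Fzd5, Sfrp4 and Wnt5a were higher and Fzd1, Tcf7l2, Fzd3 and Fzd4 lower in null cultures. The 9 became 1 without wild type replicate 1 of day 8, 4 without wild type replicate 2 of day 8 and 3 by DESeq2. At day 14 Wnt5a passed, and 7 had an unadjusted p under 0.05, against 12.9% of all genes: Wnt5a, Sfrp2, Wnt6, Sfrp1, Wnt2, Fzd7 and Dkk3, each of them higher in null cultures. The 7 became 4 without wild type replicate 1 and 3 without null replicate 1 of day 14. The interaction gave 0 calls among the 33 and 0 among all genes by edgeR, and 0 among the 33 by DESeq2, which called 8 genes in all; 5 of the 33 had an unadjusted p under 0.05, against 6.08% of all genes, and 0 did without wild type replicate 1 of day 14. Over the 33 genes the log2 differences had a median of -0.02 at day 8 and 0.20 at day 14, against 0.01 and -0.02 over all genes tested. Leaving out 1 library moved the first to 0.12 (wild type replicate 2 of day 8) and the second to 0.10 (null replicate 1 of day 14). At day 8 the genotypes did not overlap for 10 genes that were higher and 7 that were lower in null cultures, where 42% of all genes did not overlap (21.1% higher and 20.9% lower). At day 14 this held for 10 higher genes and 0 lower genes, where 43.6% of all genes did not overlap (20.9% higher and 22.8% lower). The 10 at day 14 were Fzd7, Lrp6, Lef1, Wnt6, Wnt2, Wnt5a, Ccnd1, Sfrp2, Dkk3 and Sfrp1, of which Fzd7, Lrp6, Wnt6, Wnt2, Wnt5a and Sfrp1 lie on the chromosomes that stood higher in null libraries. The part of that shift in these differences was not tested.

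**Figure D3:**
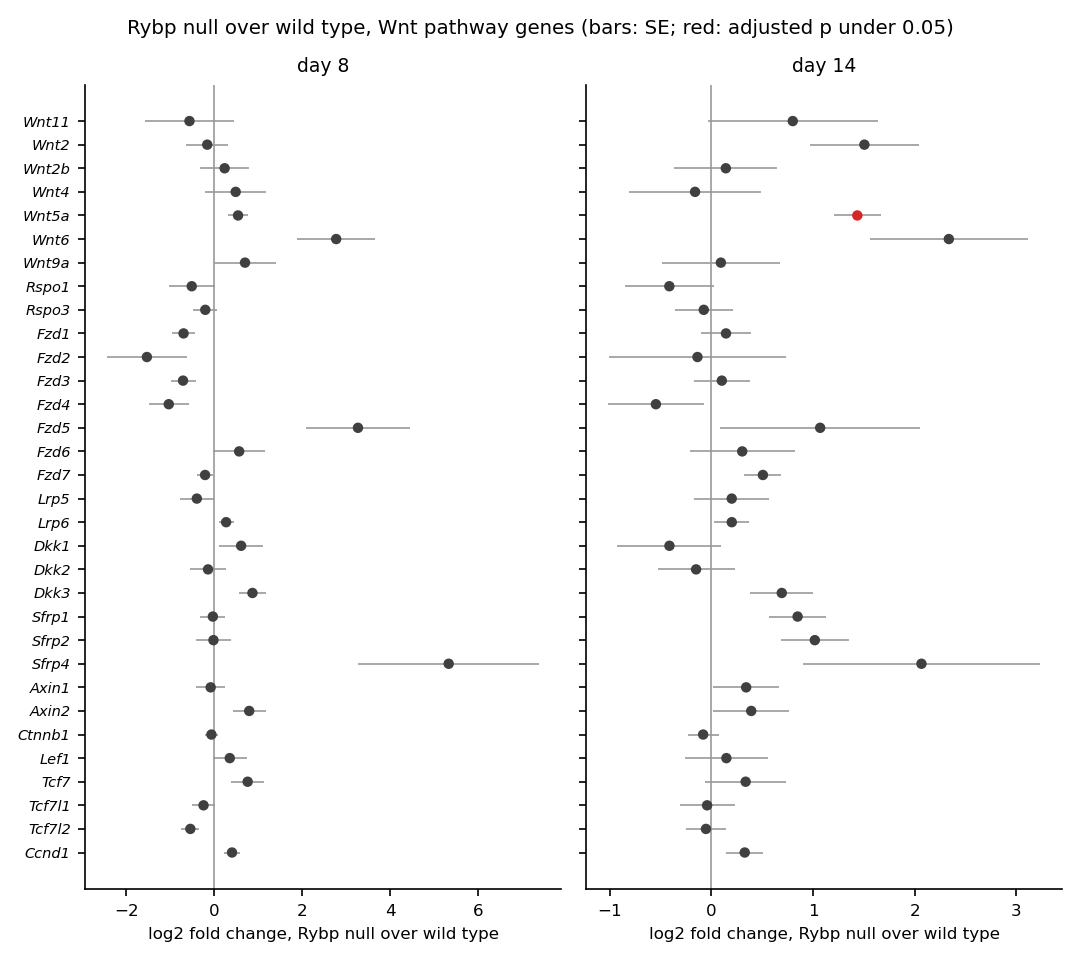
Log2 fold change of Rybp null over wild type (x axis) with its SE (bars) for each tested gene (y axis) at day 8 and day 14. Each panel has its own scale. Wnt7a is left out because its counts at days 8 and 14 came from 1 library of each genotype. Wnt5a at day 14, at 1.44, is the only point drawn in red (adjusted p under 0.05), and the widest bars belong to genes with few counts such as Sfrp4 and Fzd5, whose fitted values at day 8 rest on 0 and 1 counts in wild type and are no measure of the fold.

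The change from ES cells to day 8 moved far more of these genes, as it did of all genes. In wild type cells 15 of 33 rose and 3 fell, where 40.5% of all genes passed (21.2% higher and 19.3% lower). In null cells 12 rose and 3 fell, where 37.7% passed (19% higher and 18.6% lower). Among the tested genes the median change was 1.10 (log2) in wild type and 1.15 in null cells, or 1.36 and 1.19 with genes at 0 counts set to their bound, against 0.13 and 0.04 over all genes. The calls shared by the genotypes numbered 11, which is 61.1% of the 18 wild type calls and 73.3% of the 15 null calls, and all 11 had the same direction. They were Wnt5a, Wnt2, Rspo3, Fzd1, Dkk1, Dkk2, Dkk3 and Tcf7l2, which rose, and Fzd5, Sfrp4 and Ccnd1, which fell. Fzd2, Fzd4, Fzd7, Lrp5, Lrp6, Rspo1 and Sfrp1 passed in wild type and not in null cells, and Wnt4, Wnt6, Lef1 and Tcf7l1 in null and not in wild type cells. Whether these changes differ between genotypes was not tested. Pluripotency markers summed to 6513 CPM in wild type and 11236 CPM in null ES cells, and at day 8 to 49.8 to 60.6 CPM in wild type and 65.3 to 132 CPM in null libraries.

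**Figure D4:**
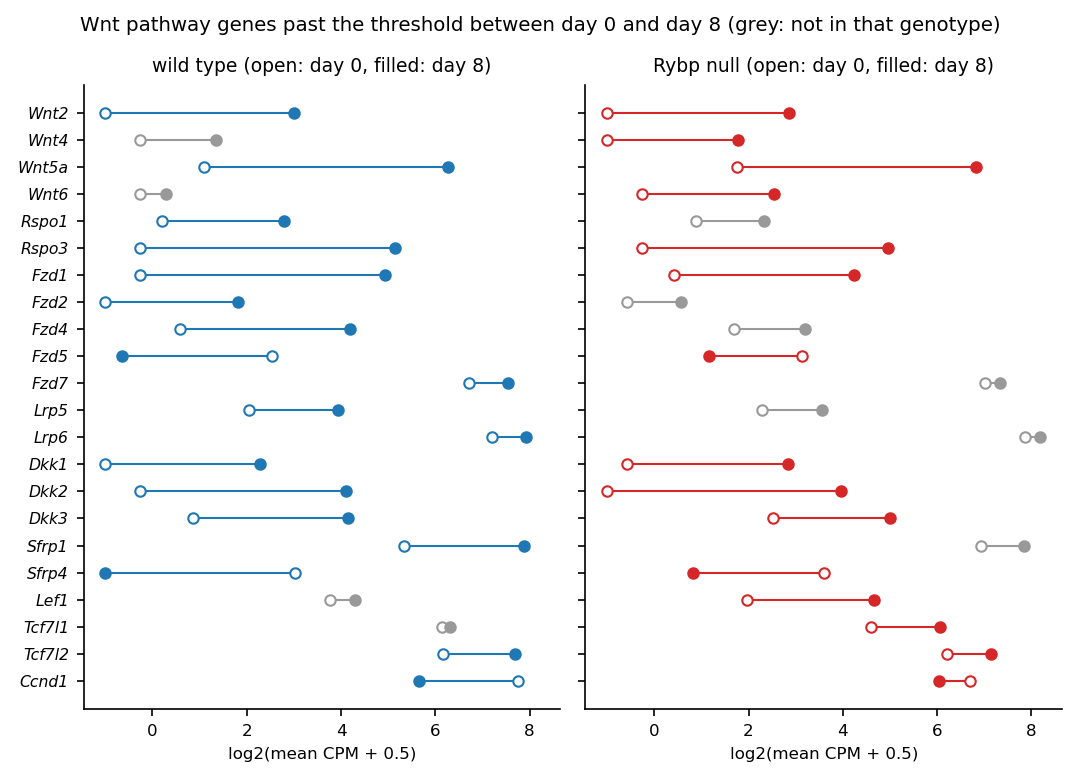
Mean level as log2(mean CPM + 0.5) (x axis) at day 0 (open circles, 1 library) and day 8 (filled circles, 2 libraries) for the 22 genes (y axis) that passed in either genotype, with wild type on the left and Rybp null on the right; grey marks a change that did not pass in that genotype. Fzd5, Sfrp4 and Ccnd1 move to the left in both panels, and the longest moves to the right include Rspo3, Wnt5a and Fzd1.

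From day 8 to day 14, Sfrp2 rose and Wnt5a fell in wild type cultures, where 4.04% of all genes passed (2.47% higher and 1.57% lower). In null cultures Sfrp2, Sfrp1, Fzd1 and Rspo1 rose and no gene of the set fell, where 7.69% of all genes passed (4.29% higher and 3.41% lower). The median log2 change of the tested genes was 0.25 in wild type and 0.37 in null cultures, against 0.00 and -0.01 over all genes. The wild type median was 0.02 without replicate 1 of day 8 and 0.00 without replicate 1 of day 14, and the null median was 0.15 without replicate 1 of day 14. The days did not overlap for 11 genes that were higher and 7 that were lower at day 14 in wild type, where 51.5% of all genes did not overlap (26.3% higher and 25.1% lower). In null cultures this held for 12 higher and 3 lower genes, where 46.6% of all genes did not overlap (23.7% higher and 22.9% lower). These comparisons share their day 8 libraries with the genotype comparison of that day.

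In ES cells 16 of the 51 genes reached 5 CPM in either library. Dkk3 and Sfrp1 were at least 2 times higher in the null library and Lef1, Tcf7l1 and Ccnd1 at least 2 times lower. Sfrp1 was 3.03-fold higher (95% counting interval 2.49 to 3.70) and Dkk3 3.98-fold higher, from 4 and 31 counts (1.41 to 15.5). Over all 10865 genes at that level, 8.42% were as far apart upward and 4.89% downward. Each genotype has a single library here, so the values compare those libraries.

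The rest of the pathway was taken from 7 lists with 66 genes, of which 53 were tested. None passed between genotypes at day 8 or day 14 by edgeR or DESeq2, and 10 and 7 had an unadjusted p under 0.05, against 13.4% and 12.9% of all genes. From day 0 to day 8, 27 rose and 2 fell (Tle4 and Myc) in wild type, where 21.2% of all genes were higher and 19.3% lower. In null cells 25 rose and 4 fell (Tle4, Porcn, Csnk1a1 and Tbx3), where 19% were higher and 18.6% lower. By DESeq2 these became 25 and 2 in wild type and 21 and 2 in null cells. By list, the cytoplasmic relay and destruction complex had 6 of 15 higher in each genotype, the nuclear cofactors 7 and 5 of 11, and the noncanonical receptors and planar polarity genes 7 and 8 of 13. The further extracellular antagonists and Dkk co-receptors had 3 of 4 tested higher in each genotype. The R-spondin receptors and receptor turnover genes had 2 of 4 higher in wild type and 1 of 4 in null cells. Of 11 widely used targets outside the set, such as T and Mesp1, only 4 had enough counts to test, and the days between 0 and 8 were not sampled. From day 8 to day 14 the calls in wild type were Prickle2, which rose, and Daam1 and Lgr4, an R-spondin receptor, which fell. In null cultures Pygo1 rose and Vangl1, Tnik and Tle4 fell. Over all genes 2.47% were higher and 1.57% lower in wild type, and 4.29% and 3.41% in null cultures. By DESeq2 the null calls were Pygo1 and Tle4 alone, and the wild type calls were Lgr4, Prickle2, Daam1 and Tle3. The genes named in this paragraph were picked after their values were seen, because they were the few calls in these lists.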

How the data were processed

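Whole-number read counts per Ensembl gene, not normalized, were deposited by the authors as a single table of 10 libraries. Per the submitters' processing notes, TopHat, HTSeq and DESeq were used with the build mm9; their versions, the annotation and the strand setting are not given here, so reads of overlapping or antisense genes cannot be told apart. Symbols were matched by Ensembl ID (30946 of 36191). Chromosomes and exon lengths came from GENCODE vM21 (GRCm38), so no gene coordinates are given in the authors' build.

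Counts were tested with edgeR 4.0.16 (R 4.3.3), by a two-sided quasi-likelihood F test with robust dispersion and TMM scaling. A model with 1 coefficient per genotype and day was fitted to all 10 libraries and the 15819 genes kept by filterByExpr (minimum count 10). It had 4 residual degrees of freedom and a biological coefficient of variation of 0.214. Because the smallest group has 1 library, a gene was kept if a single library was high enough. Fzd2, Fzd5, Wnt6 and Wnt11 were thus tested only through groups where they stood high. These were wild type day 8, ES cells, null cultures and a null library of day 14, in that order. Benjamini-Hochberg adjustment ran over all tested genes of a comparison, and a gene passed at an adjusted p under 0.05. The SE was derived from F (the absolute change divided by its square root). The single library of each genotype at day 0 was taken to vary as the later groups do, and the genotypes were not tested at day 0. A group with 0 counts gives a bound against a floor of 3 counts over its libraries; 1 to 3 counts give a ratio with an exact 95% counting interval. Intervals and floors cover counting error only. In counts simulated for the day 8 genotype comparison (15819 genes), 86% of genes changed 4-fold and 19% of those changed 2-fold were recovered. The changed genes were drawn from well counted genes only, and the simulated spread followed the trend over genes. These shares therefore do not cover genes with few counts, such as Wnt6, Fzd2 and Wnt11.

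The set and the pathway lists were chosen with earlier results of these data known. Named genes were those passing in any comparison and the 6 of highest mean CPM that never passed. Wnt3, Wnt3a, Wnt5a, Wnt11, Dkk1, Axin2, Lef1 and Ctnnb1 were named whatever their p. At day 0, genes at 5 CPM or more and 2-fold apart were named. Alternatives were DESeq2 1.42.0, other scalings, no count filter, days 8 and 14 alone, replicate blocks and leaving out each later library.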

Additional observations from a re-analysis of the deposited data

Results flagged for a closer look

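Fzd7, the most abundant Frizzled gene, moved in opposite directions between days 8 and 14. Both wild type libraries of day 14 (138 and 155 CPM) lay below both of day 8 (181 and 192 CPM), while both null libraries of day 14 (227 and 190 CPM) lay above both of day 8 (142 and 181 CPM). The difference between the changes was 0.71 on the log2 scale (SE 0.26), and the interaction test of it did not pass (edgeR adjusted p = 0.721). Neither change passed on its own: -0.35 in wild type (SE 0.18, adjusted p = 0.38) and 0.37 in null cultures (SE 0.18, adjusted p = 0.271). Over all genes, 25.1% were lower at day 14 without overlap of the days in wild type. In null cultures 23.7% were higher without overlap. The share of all genes with both was not counted.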

How the results depend on the processing

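No named result changed direction. The number of genes of the set that passed was 0 at day 8 and 1 at day 14 between genotypes. Without the count filter these became 1 (Wnt6) and 4 (Wnt5a, Wnt6, Sfrp2 and Sfrp1), and the counts from day 8 to day 14 went from 2 to 6 in wild type and from 4 to 7 in null cultures. The cause was not tested. Leaving out each later library in turn gave 0 to 0 at day 8, 0 to 2 at day 14, 0 to 0 for the interaction, 15 to 18 (wild type) and 14 to 18 (null) from day 0 to day 8, and 0 to 3 and 3 to 4 from day 8 to day 14. Over all genes, the calls at day 8 went from 200 to 708 without the filter, and those at day 14 from 97 to 637, or to 200 with DESeq2. The interaction went from 0 to 65 and, with DESeq2, 8.

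Labels share replicate numbers across groups but do not say what they mark. Deviations of same-numbered libraries correlated at 0.134 between genotypes at day 8 and 0.259 at day 14, and at -0.056 to -0.457 across days. The values across days do not bear on pairing within a day. Because the labels are silent, the main fit did not take the numbers as pairs. With the replicate number as a block (days 8 and 14), 0 genes of the set passed at day 8, 1 at day 14, 0 for the interaction, 3 in wild type and 4 in null cultures over time. With a replicate block within each day, chosen after seeing the data, 1 passed at day 8 (Wnt6) and 3 at day 14 (Wnt5a, Sfrp2 and Sfrp1).

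With DESeq2 the calls of Fzd2 in wild type and of Fzd5, Ccnd1 and Sfrp4 in null cells from day 0 to day 8 were lost (adjusted p = 0.0825, 0.26, 0.0642 and 0.11), as was that of Rspo1 from day 8 to day 14 (0.0866). Without the filter Ccnd1 in null cells was lost too (0.0536). Counted as pairs of a named result (55 in all) and a fit, 6 calls were lost and 7 gained across the other settings, and 28 and 2 across omissions of a library, of which 7 losses were Rspo1 in null cultures from day 8 to day 14. At this depth 22 of the 51 genes stayed below 5 CPM in every library.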

Other observations

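At day 14 several of these genes differed between replicate numbers in the same way in both genotypes, with 1 library of each genotype per number. The genes were picked after their values were seen. Others, such as Fzd7 and Dkk3, differed in opposite ways in the genotypes, and the share of genes that agree was not counted. Over 5000 genes the deviations of same-numbered libraries correlated at 0.259 between genotypes at that day, so agreement is not particular to this set. Wnt7a, a ligand of neural and epithelial tissue, had 13 and 14 counts in the wild type and null libraries numbered 1 and 0 counts in both libraries numbered 2. Dkk2 stood at 46.2 and 42 CPM in the libraries numbered 1 and at 24 and 21.3 CPM in those numbered 2. Axin2 had 35.6 and 48.4 CPM against 19.7 and 24 CPM, and Tcf7 25.2 and 26.2 CPM against 9.44 and 17.3 CPM. Fzd4 and Rspo1 ran the other way, at 7 and 3.94 CPM against 13.3 and 9.89 CPM, and at 16.1 and 8.45 CPM against 24.2 and 21.7 CPM. The labels do not say what the numbers stand for, and no test was made.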
